A study of Brassica juncea with 4 samples.

Results

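Among the small RNA sequences listed for floral buds of *Brassica juncea*, 15 distinct sequences bore the family name miR894, miR5139, miR1511, miR2911, miR2916, miR1103, miR1310, miR5368, miR4995 or miR2603, of 246 distinct sequences in all. They were chosen by these family names, with any species prefix, and with earlier results of these data known. The names were taken because miRBase families so named resemble fragments of ribosomal RNA (rRNA) or transfer RNA (tRNA). The 12 sequences of families miR2911, miR2916, miR1103, miR1310, miR5368, miR4995 and miR2603 are called rRNA-named here, and the 3 sequences of families miR894, miR5139 and miR1511 tRNA-named. The cytoplasmic male-sterile (CMS) line carries a cytoplasm from *B. rapa*, brought in by an interspecific cross and kept by repeated backcrossing, and the maintainer fertile (MF) line is its fertile counterpart. All buds of an inflorescence were taken at flowering under long days, with several plants pooled for each line. Each line had 1 small RNA library and 1 degradome library, a sequenced collection of the cut ends of mRNAs, so every test below compares libraries and not lines. Pooled whole buds also leave less RNA per cell and fewer cells of a type impossible to tell apart.

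Ribosomes are built on long rRNAs that are cut from a common precursor, and on the short 5S rRNA, which has genes of its own. The genes lie in long tandem repeats, and their products make up most of the RNA of a cell. tRNAs bring amino acids to the ribosome and end in the added bases CCA. Both kinds of RNA leave short pieces in a small RNA library, and several miRBase families were later recognised as such pieces, miR2911 of the large-subunit rRNA being the best known. The sequence TGGTATCAGAGCC, complementary to the 3′ end of the initiator methionine tRNA, is the primer binding site of many plant retrotransposons, and Arabidopsis miR845 is known to match that site. As background, miR2916 and miR2603 resemble the small-subunit rRNA, miR2911 and miR1310 the large-subunit rRNA, miR4995 the large-subunit rRNA of the chloroplast, and miR1103 the 5S rRNA. No rRNA or tRNA sequence was at hand here, so the resemblance of single entries was not tested.

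The sequences on which the values below turn are given with bases 2 to 8, the seed position of a miRNA, in capitals, from 5′ to 3′ and with T for U as in the deposited tables.
ppt-miR894_R+1: cGTTTCACgtcgggttcacca
peu-MIR2916-p3: tCTCAACCataaacgatgccgacc
peu-MIR2916-p5: gTCTCAACcataaacgatgccgac
smo-MIR1103-p3: gTGACCTCccgggaagtcc
pta-MIR1310-p3: cTATTCTCaaactttaaataggt
peu-MIR2911-p3_1ss6CT: gCGTGTCGgccgggggacgggctg
peu-MIR2911-p5_1ss3TA: gGAGGACTgctcgagctgc
gma-miR4995_L+3R+1: cATAGGCAgtggcttggttaaggga
gma-MIR5368-p5: cCTGGGATtggctttgggcttt
gma-MIR5368-p3_1ss4CA: gGAAGAGCtagaattctaacctt
The seed CTGGGAT was shared by gma-MIR5368-p5 and a further miR5368 sequence of 18 nt that lies wholly inside it, and the seed TCCCTGC by both miR2603 sequences. No other seed was shared. None of the other 231 sequences had any of the members' seeds at its own bases 2 to 8. The name parts tell how a read departs from the registered miRNA: L and R give bases gained or lost at the left and right end, and ss gives substituted bases. Of the 15 names, 6 listed substituted bases.

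Of the 15 members, 8 shared a run of 12 or more bases with another member. The peu-MIR2916-p3 and peu-MIR2916-p5 sequences, named as opposite arms of 1 hairpin, shared 23 of their 24 bases and were offset by 1 base, so they lay on the same stretch. Both miR2603 sequences shared 19 bases from their first base on. Sequences of families miR5139 and miR1511 shared a run of 13 bases at their 3′ end with miR845, shown here in capitals because it links the tRNA-named entries to a family that is no member.
rgl-miR5139_L-1: aacctGGCTCTGATACCA
gma-miR1511_R-2: aaccaGGCTCTGATACCA
ath-miR845a: cGGCTCTGATACCAattgatg
aly-miR845a: cGGCTCTGATACCAgttgatg
The miR1511 sequence differed from the miR5139 sequence by T5A alone, counted from the 5′ end of rgl-miR5139_L-1. The run is the reverse complement of the primer binding site named above. In rgl-miR5139_L-1 and gma-miR1511_R-2 the run closed the read with CCA, while both miR845 sequences went on for 7 bases after it.

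All 3 tRNA-named members ended in CCA, 20% of the 15 members, against 8 of the 231 other sequences (3.46%). Just 1 member, ppt-miR894_R+1, had the 21-nt length of most plant miRNAs, whereas 102 of the other 231 (44.2%) did. A first base T, the usual one of plant miRNAs, was found in 1 member, peu-MIR2916-p3, and in 100 of the other sequences (43.3%). The GC content ran over a wide range in the members, lowest in pta-MIR1310-p3 (26.1%) and highest in peu-MIR2911-p3_1ss6CT (83.3%), with a median of 54.5% against 47.8% in the others. These shares are descriptions, with no test.

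The deposited tables placed 5 members in a hairpin of the Arabidopsis genome (TAIR10), gave 6 as mapped to a genome without a hairpin, and gave 4 (ppt-miR894_R+1, smo-MIR1103-p3 and the pair of miR2911 sequences) as not mapped to the Arabidopsis genome. The peu-MIR2916 hairpin was at chr2:4691-4780 on the plus strand, close to the start of the chromosome, where one of the nucleolus organizers of Arabidopsis lies. Gene annotation of these places was not used here. Its 90 bases are shown with peu-MIR2916-p3 in capitals, at chr2:4724-4747.
peu-MIR2916: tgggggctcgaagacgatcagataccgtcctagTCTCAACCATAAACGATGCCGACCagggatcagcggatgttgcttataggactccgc
The registered poplar miRNA covers bases 1 to 23 of the poplar hairpin, while peu-MIR2916-p3 covers bases 34 to 57, so the sequenced reads came from another stretch than the registered miRNA. The Arabidopsis and poplar hairpins were identical at 83 of 90 aligned bases (92.2%). In the deposited fold, 9 of the 24 bases of peu-MIR2916-p3 and 10 of 24 of peu-MIR2916-p5 were paired.

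The pta-MIR1310 hairpin lay 2375 bases further along chromosome 2, at chr2:7155-7205 on the plus strand, shown with pta-MIR1310-p3 in capitals.
pta-MIR1310: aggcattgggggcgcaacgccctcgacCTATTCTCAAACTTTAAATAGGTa
Here too the registered pine miRNA (bases 2 to 24 of the pine hairpin) and the reads (bases 29 to 51) did not overlap, and 49 of 51 aligned bases were identical (96.1%). The gma-MIR4995 hairpin was on the chloroplast genome at 105286 to 105358, with 66 of 73 bases identical to the soybean hairpin (90.4%). The rgl-MIR5139 hairpin, at chr4:6369683-6369828, was identical to the registered one from *Rehmannia glutinosa* over all 146 bases. In these last hairpins the reads did cover the registered miRNA: rgl-miR5139_L-1 lay at bases 12 to 29 against 11 to 29, and gma-miR4995_L+3R+1 at bases 8 to 32 against 11 to 31.

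Hairpins of the members folded weakly. The folding index deposited with each hairpin (MFEI, the folding free energy set against length and GC content, higher for a firmer fold) was 0.5 for peu-MIR2916, gma-MIR4995 and rgl-MIR5139 and 0.7 for pta-MIR1310. Among 99 hairpins of known Arabidopsis miRNAs it was between 0.6 and 1.2 with a median of 1, and 7 of them were at or below 0.7. Among 76 candidate hairpins it was between 0.4 and 1.5 with a median of 0.7, so the members' values were inside that range. The share of paired bases within the read was 37.5% in peu-MIR2916-p3, 41.7% in peu-MIR2916-p5, 52.2% in pta-MIR1310-p3, 60% in gma-miR4995_L+3R+1 and 77.8% in rgl-miR5139_L-1. The lowest among 131 Arabidopsis miRNA entries was 57.1% and their median 85.7%, so 3 of the 5 members lay below all of them.

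The stretch around peu-MIR2916 and pta-MIR1310 gave other reads. PC-3p-77, a 24-nt sequence that the study listed as a candidate miRNA, was assigned to chr2:4886-5149, 106 bases after the peu-MIR2916 hairpin, with 84 reads in CMS and 222 reads in MF. The hairpin of aly-MIR4243 at chr2:7068-7329 holds the whole pta-MIR1310-p3 sequence, and a copy of it at chr3:14201039-14201300 holds it as well. Its own read, with 0 reads in CMS and 6 reads in MF, shared 16 bases with pta-MIR1310-p3. Near gma-MIR4995 on the chloroplast genome were PC-3p-39, PC-5p-40 and PC-3p-90, each with at most 3 reads in either library. Of these 5 neighbours within 10000 bases, PC-3p-77 was lower in CMS by the call rule explained below (log2 ratio -1.09, 95% interval -1.47 to -0.72), and with the mappable reads as the scale its ratio was -0.20, and per Rfam read it turned to 0.32.

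The members had 2425 reads in the CMS library, among 105032 reads of all listed sequences, and 3317 reads in the MF library, among 90877. The libraries were unlike in depth: the CMS library had 3192676 mappable reads and the MF library 7331757. Reads over 30 nt were 1.14% of raw reads in CMS and 22.2% in MF. Reads matching the structural RNAs of Rfam, the class in which rRNA and tRNA pieces are counted, were 3.21% of mappable reads in CMS (102424 reads) and 4.62% in MF (338962 reads). The choice of scale therefore decides many directions. The authors' normalized values are raw reads multiplied by 1.12 in CMS and by 0.896 in MF, which puts the CMS to MF ratio 0.88 lower on the log2 scale than division by mappable reads and 1.41 lower than division by Rfam reads. All log2 ratios below are CMS over MF with the authors' factors unless another scale is named. Their exact 95% intervals cover counting error only, since each line had 1 small RNA library. The reads carry no molecular identifiers, so copies made by amplification were counted as separate reads.

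The 15 members together took 0.0760% of the mappable reads in CMS (95% interval 0.0730% to 0.0790%) and 0.0452% in MF (0.0437% to 0.0468%). Set against Rfam reads the sum equalled 2.37% in CMS and 0.979% in MF. Of the reads of all listed sequences it was 2.31% in CMS and 3.65% in MF. The members thus took a higher share of mappable reads in CMS than in MF and had a higher ratio to Rfam reads, but took a lower share of the listed small RNA reads. Most listed reads in both libraries were of the miR319a sequence, which the study lists as higher in CMS. The share of listed reads without that sequence was not computed. Whether the single members were among the Rfam reads is not given in the files, so the Rfam figures are ratios and not parts of a whole.

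ppt-miR894_R+1, the 21-nt tRNA-named sequence first registered in moss, was the most abundant member, with 1740 reads in CMS and 1994 reads in MF. That was 545 RPM (reads per 1000000 mappable reads) in CMS and 272 RPM in MF. It made up 71.8% of the members' reads in CMS (69.9% to 73.5%) and 60.1% in MF (58.4% to 61.8%). Its log2 ratio was 0.12 (0.03 to 0.21) with the authors' factors, 1.63 per raw read, 1.53 per Rfam read and -0.41 per listed small RNA read. A direction for this sequence therefore rests on the scale.

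The rRNA-named members followed. peu-MIR2916-p3 had 300 reads in CMS and 583 in MF, and peu-MIR2916-p5 had 204 reads in CMS and 353 in MF. smo-MIR1103-p3, whose registered hairpin is from the lycophyte *Selaginella moellendorffii*, had 105 reads in CMS and 200 in MF. In RPM these were 94.0, 63.9 and 32.9 in CMS and 79.5, 48.1 and 27.3 in MF. Their log2 ratios with the authors' factors were -0.64, -0.47 and -0.61, lower in CMS. The p3 to p5 ratio of peu-MIR2916, which no scale can alter, was 1.47 in CMS and 1.65 in MF, with no difference detected between the libraries (Fisher's exact test, two-sided, p = 0.308, log2 odds ratio -0.17, interval -0.50 to 0.16).

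The miR2911 pair had the lowest CMS to MF ratios of the members with at least 20 reads. peu-MIR2911-p3_1ss6CT had 0 reads in CMS and 21 reads in MF. With 3 reads in place of 0, the limit taken for a count of 0, it was 5.62-fold lower in CMS. The exact 95% interval of its log2 ratio reached up to -2.06. peu-MIR2911-p5_1ss3TA had 1 read in CMS and 20 reads in MF, a log2 ratio of -4.01 with a wide interval (-9.38 to -1.36). Their values stayed below 0 on every scale tried. The bound of the p3 sequence was between -3.02 and -0.98, and the ratio of the p5 sequence between -4.53 and -2.50. With raw reads or Rfam reads as the scale, neither passed the call rule explained below. With mappable reads only the p3 sequence did. The pair came from 24-nt and 19-nt reads of high GC content, 83.3% and 68.4%.

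The remaining rRNA-named members were scarce. pta-MIR1310-p3 had 17 reads in CMS and 42 in MF, and gma-miR4995_L+3R+1, the chloroplast sequence, had 14 reads in CMS and 22 in MF. gma-MIR5368-p5 had 8 reads in CMS and 11 in MF, and gma-MIR5368-p3_1ss4CA 3 reads in CMS and 11 in MF. The 18-nt miR5368 sequence had 1 read in CMS and 4 in MF, and both miR2603 sequences had 0 reads in CMS, with 6 and 4 reads in MF. A 0 count in CMS allows up to 0.940 RPM, more than the 0.818 and 0.546 RPM of the miR2603 sequences in MF. Per mappable read, a difference in them was therefore not detectable at this depth.

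The other tRNA-named members were rare too. rgl-miR5139_L-1 had 28 reads in CMS and 41 reads in MF (log2 ratio -0.23, interval -0.98 to 0.49), and gma-miR1511_R-2 had 4 reads in CMS and 5 in MF. The miR5139 read was thus several times as frequent as the miR1511 read in both libraries.

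By list, the 12 rRNA-named members summed to 653 reads in CMS and 1277 reads in MF, a log2 ratio of -0.65 (-0.79 to -0.51), and the 3 tRNA-named members to 1772 reads in CMS and 2040 reads in MF, a log2 ratio of 0.11 (0.02 to 0.21). Per mappable read the rRNA-named sum was at 0.23 (0.09 to 0.37), so its sign turned with the scale. Most of it came from peu-MIR2916, with 504 reads in CMS and 936 in MF. Without peu-MIR2916, the other 10 rRNA-named members summed to 149 reads in CMS and 341 in MF, at -0.88 (-1.17 to -0.60) with the authors' factors and with an interval of -0.28 to 0.29 per mappable read. With overlapping members counted once, 11 sequences were left and the ratio of all members was -0.10 (-0.18 to -0.02), against -0.14 (-0.21 to -0.06) for all 15.

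**Figure D1:**
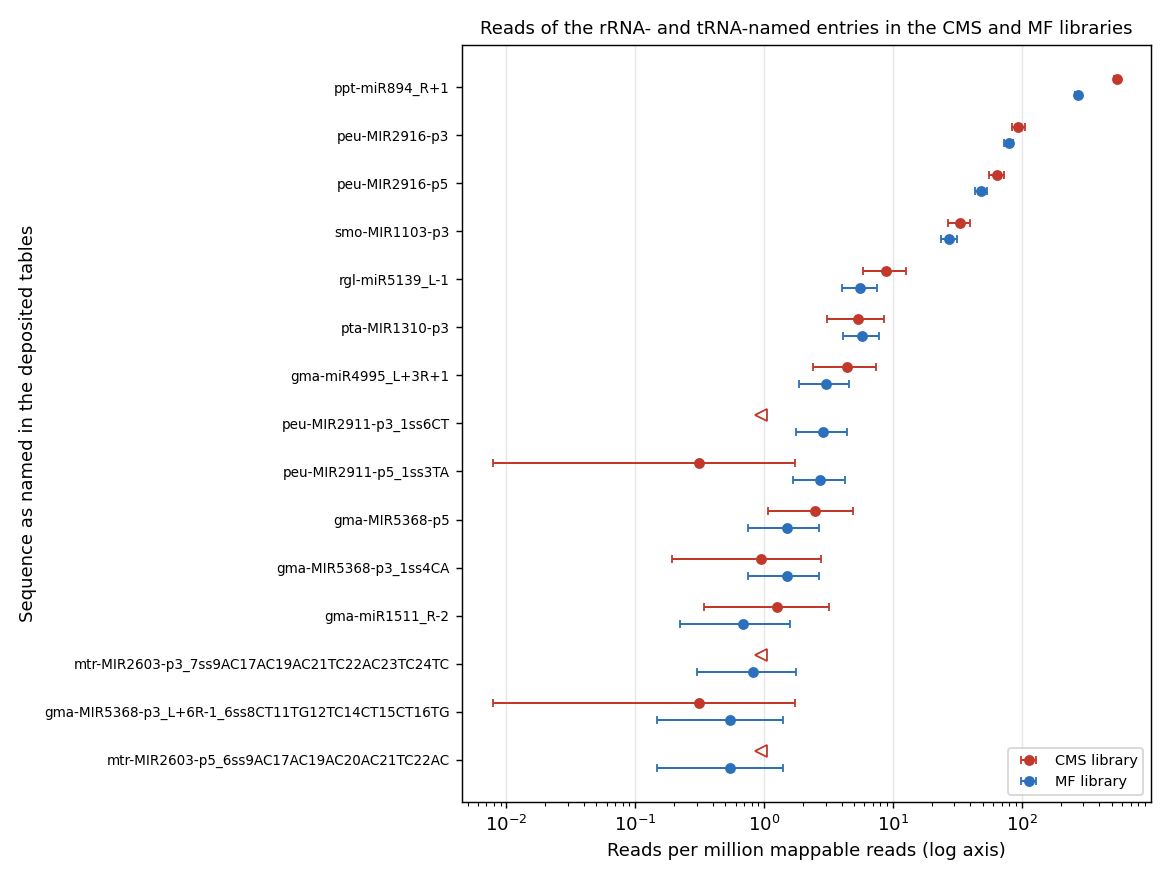
Reads per 1000000 mappable reads (RPM) of each member on a log axis, with CMS in red above MF in blue and exact 95% Poisson intervals of 1 library each. Open triangles mark 0 reads, drawn at the limit of 3 reads. Values range from ppt-miR894_R+1 (545 in CMS and 272 in MF) to the miR2603 sequences, and the miR2911 sequences stand out with lower values in CMS.

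A sequence was called where the Audic-Claverie probability of its normalized values was below 0.01 divided by 246 and where a 2 by 2 table of the values passed 0.01 in the chi-squared test as well as in Fisher's exact test. The Audic-Claverie value is the probability of the observed value itself and not of a tail, so it never exceeds the tail probability. By this rule 5 of the 15 members were lower in CMS, against 8.94% of all 246 sequences, and 0 were higher, against 5.28%. Calls need reads: all 5 were among the 9 members with at least 20 reads, and 25% of the 88 sequences of that depth were called lower. Both peu-MIR2916 sequences were among the 5, though they lie on the same stretch and are not separate observations. The 5, with their exact Audic-Claverie point probabilities, were peu-MIR2916-p3 (p = 1.34e-11), peu-MIR2911-p3_1ss6CT (9.54e-07), peu-MIR2916-p5 (1.36e-05), peu-MIR2911-p5_1ss3TA (1.81e-05) and smo-MIR1103-p3 (3.42e-05). With the two-sided tail in place of the point probability 3 of them were called, peu-MIR2916-p3 and both miR2911 sequences, against 8.13% of all sequences lower. At an unadjusted Audic-Claverie p below 0.05, 10 members were lower in CMS, against 26.4% of all sequences, and 1 was higher (ppt-miR894_R+1), against 18.7%. A point probability also falls below 0.05 when deep values are nearly equal, so these counts are no measure of difference. Among the 10 was rgl-miR5139_L-1, with normalized values of 31 in CMS and 37 in MF (0.0371), where Fisher's exact test gave p = 0.545. Both miR2603 sequences, with 0 reads in CMS, were among them too. By Fisher's exact test at that limit 6 members were lower, against 13.8% of all, and 1 was higher, against 9.76%. The median log2 ratio was -0.61 over the 15 members, with bounds for the 3 that had 0 reads in CMS, and -0.10 over the 169 sequences that gave a ratio or a bound.

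On other scales the calls changed sides. Per mappable read, peu-MIR2911-p3_1ss6CT was the 1 member lower in CMS (4.07% of all sequences) and ppt-miR894_R+1 the 1 member higher (15.9% of all). Per Rfam read, 0 members were lower, against 2.44% of all sequences, and 4 were higher, against 21.5%: ppt-miR894_R+1, both peu-MIR2916 sequences and smo-MIR1103-p3. Another scale sets the median ratio of 86 well-covered sequences to 0. There the log2 ratios were -0.61 for peu-MIR2916-p3, -0.44 for peu-MIR2916-p5, -0.58 for smo-MIR1103-p3 and -3.97 for peu-MIR2911-p5_1ss3TA. For peu-MIR2911-p3_1ss6CT it was -2.46 with 3 reads in place of 0. Relative to the median listed sequence these 5 were therefore below 0 and ppt-miR894_R+1 was at 0.15, whichever totals are used; on that scale smo-MIR1103-p3 did not pass the call rule and ppt-miR894_R+1 was called higher in CMS (8.54% of all sequences were lower and 6.1% higher).

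**Figure D2:**
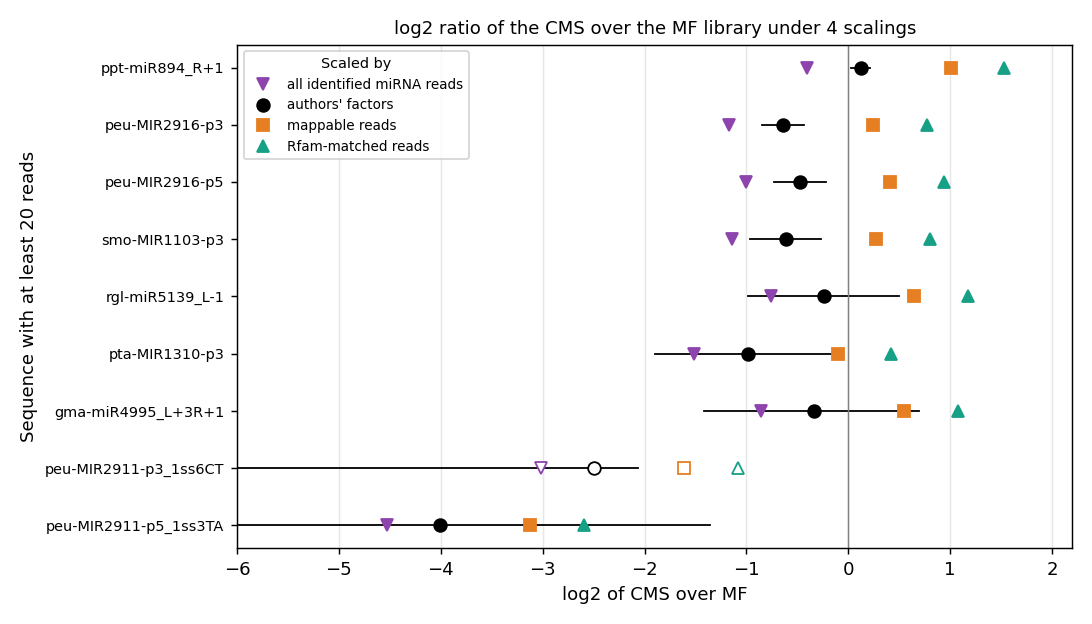
log2 ratio of CMS over MF for the 9 members with at least 20 reads, scaled by all listed miRNA reads, by the authors' factors, by mappable reads and by Rfam reads, with the exact 95% interval drawn for the authors' factors and cut at the left edge. Open symbols are bounds for 0 reads in CMS. The peu-MIR2916 and smo-MIR1103-p3 points pass from below 0 with the authors' factors to above 0 with mappable reads. The points of both miR2911 sequences stay below 0.

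Ratios within a library avoid the scale. For each 100 reads of ppt-miR894_R+1 there were 17.2 reads of peu-MIR2916-p3 in CMS and 29.2 in MF, 11.7 of peu-MIR2916-p5 in CMS and 17.7 in MF, and 6.03 of smo-MIR1103-p3 in CMS and 10.0 in MF. The log2 odds ratios of the 3 were -0.76 (-0.99 to -0.54), -0.59 (-0.87 to -0.32) and -0.73 (-1.10 to -0.37). Both peu-MIR2916 sequences lie on the same stretch, so they are not separate observations here or in the count that follows. With Fisher's exact test and adjustment over all 245 sequences set against ppt-miR894_R+1, 6 of the 14 other members were lower in CMS, against 14.3% of all, and 0 were higher, against 6.94%. They were peu-MIR2916-p3 (adjusted p = 1.79e-10), peu-MIR2916-p5 (8.20e-05), smo-MIR1103-p3 (0.000368), pta-MIR1310-p3 (0.0408), peu-MIR2911-p3_1ss6CT (2.05e-05) and peu-MIR2911-p5_1ss3TA (0.000523), all by the exact test with Benjamini-Hochberg adjustment. All 6 had at least 20 reads over both libraries, a depth that 88 of the 246 listed sequences reached. The share that passed at that depth was not computed for this reference. The tRNA-named rgl-miR5139_L-1 had a log2 odds ratio of -0.35 (-1.11 to 0.38) and did not pass. The reference ppt-miR894_R+1 had the highest CMS to MF ratio of all members. No other member could therefore have an estimate above 0 against it, so the count of 0 higher was fixed by this reference.

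Against smo-MIR1103-p3 as the reference the peu-MIR2916 sequences were not called. The peu-MIR2916-p3 reads were 286 per 100 reads of smo-MIR1103-p3 in CMS and 292 in MF (log2 odds ratio -0.03, interval -0.44 to 0.38), and the peu-MIR2916-p5 reads were 194 in CMS and 176.5 in MF (0.14, interval -0.30 to 0.58). Both intervals hold 0, so no change in the proportion of these rRNA-named sequences to each other was detected. peu-MIR2911-p3_1ss6CT and peu-MIR2911-p5_1ss3TA were lower in CMS (6.12% of all 245 sequences were lower against this reference) and ppt-miR894_R+1 was higher (16.7% of all were higher). Against the summed reads of the 231 other listed sequences, 8 of the 15 members were lower in CMS, beside 22% of all sequences, and 0 were higher, beside 3.66%. Most reads of this reference were of the miR319a sequence, which the study lists as higher in CMS. Counts with that sequence left out of the reference were not computed. The 8 hold a miR2603 sequence with 0 reads in CMS and 6 in MF (adjusted p = 0.0378, Fisher's exact test).

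**Figure D3:**
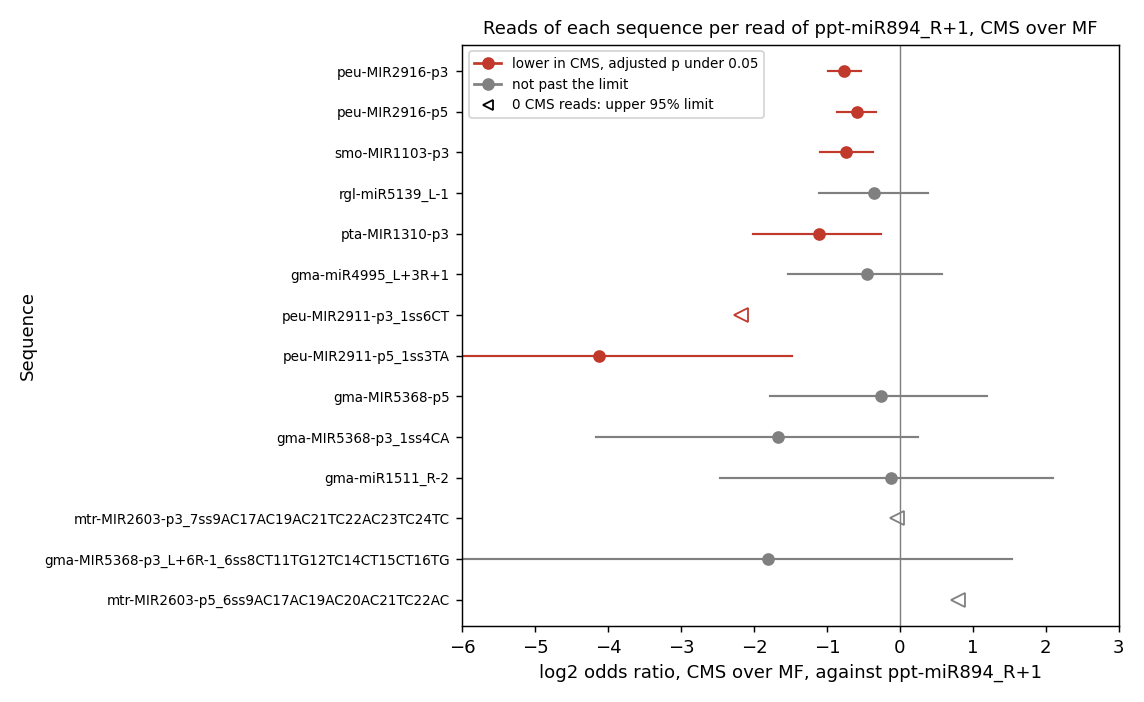
log2 odds ratio of each member against ppt-miR894_R+1, CMS over MF, with exact 95% intervals cut at the left edge. Red marks an adjusted p below 0.05 (Fisher's exact test over 245 sequences), grey the rest, and open triangles the upper limit where CMS had 0 reads. The 6 red members lie below 0 and are all rRNA-named, as are 12 of the 14 members compared. The reference has the highest CMS to MF ratio of all members, so estimates of the others fall below 0 by that choice.

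Among the reads of listed small RNA sequences, a small part of each library, the members held most of those of 19, 24 and 25 nt. The deposited class totals count identified miRNA reads alone (715 reads of 24 nt in CMS and 1390 in MF), so the shares below are not shares of all library reads of a length. Of the deposited 24-nt class total they made up 70.5% in CMS (67.0% to 73.8%) and 69.3% in MF (66.8% to 71.7%), nearly all from peu-MIR2916. Of the listed 19-nt reads they made up 69.7% in CMS (61.8% to 76.9%) and 65.9% in MF (60.5% to 70.9%), mostly smo-MIR1103-p3. Of the listed 25-nt reads, gma-miR4995_L+3R+1 supplied all 14 in CMS and 22 of 24 in MF. Among listed 21-nt reads, the class of most miRNAs, ppt-miR894_R+1 made up 1.70% in CMS and 2.31% in MF.

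The 18-nt class needs a caution. The members had 33 of 72 reads in CMS (45.8%) and 50 of 51 in MF (98.0%) by the deposited class totals. The sequences listed one by one sum to 35 reads of 18 nt in CMS, and set against that sum the members made up 94.3%. The same holds in CMS for 19 nt (131 listed reads against 152 in the class total) and 23 nt (401 against 253), where the members' shares on the listed sums were 80.9% and 4.99%. In the 24-nt class of CMS the denominators were 715 and 714 reads.

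**Figure D4:**
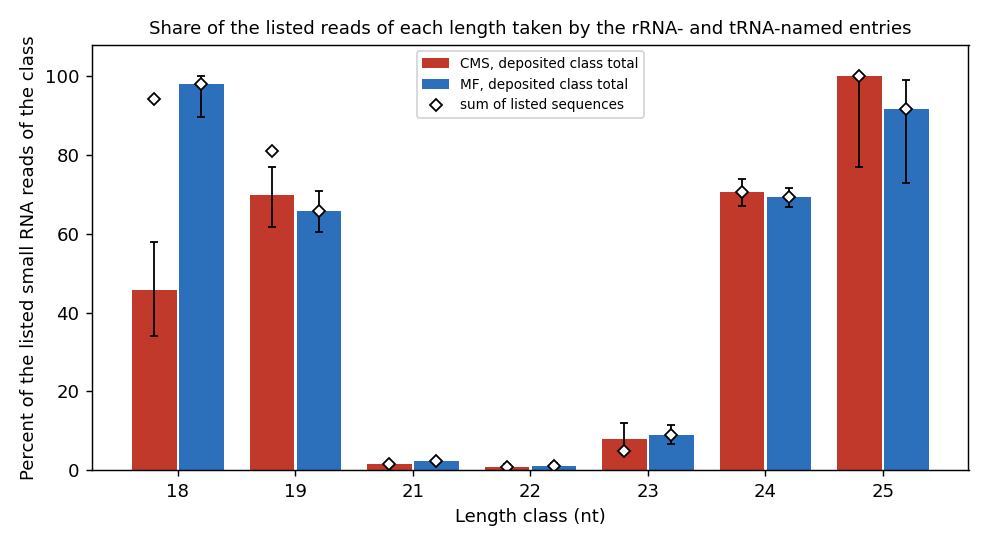
Percent of the listed small RNA reads of each length that came from the 15 members, in CMS (red) and MF (blue), with exact 95% binomial intervals on the deposited class totals. Open diamonds use the sum of the listed sequences. The 24-nt bars are near 70% in both libraries, and the bars and diamonds part in the CMS classes of 18, 19 and 23 nt.

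In the degradome, members were seldom paired with a cut mRNA. Of 15 members, 2 had a listed site (13.3%), against 69 of the 231 other sequences (29.9%); with at least 20 reads it was 1 of 9 members and 37 of 79 others. The CMS degradome listed 0 sites for members among 768, and the MF degradome 5 among 838. All 5 were in category 4, the weakest class, with 1 read at the site each. rgl-miR5139_L-1 was paired with AT5G67460.1, an O-glycosyl hydrolase of family 17, at base 1389, with an alignment score of 2 and a deposited pairing p-value of 0.0655. It was also paired with AT5G47480.1 at base 3091 and AT5G47490.1 at base 3163, a pair of RGPR-related genes, with a score of 4 and a p-value of 0.713 each. gma-miR1511_R-2 was paired with the same base 1389 of AT5G67460.1 and with base 213 of AT5G04550.1, a protein of unknown function with the DUF668 domain, with a score of 4 and a p-value of 0.889 each. The first site was thus a single read counted for both small RNAs, which share their last 13 bases.

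The CMS degradome had 4967302 mapped reads and the MF degradome 7717843. A count of 0 in CMS allows up to 0.604 reads per 1000000 mapped reads, against 0.130 for 1 read in MF, so no difference could be seen at this depth. By Fisher's exact test over 1101 pairs of small RNA and site, 0 of the 5 member pairs passed the adjusted limit of 0.05, 0 had an unadjusted p below 0.05, and 17% of all pairs passed. No site was listed in either library for the rRNA-named members or for ppt-miR894_R+1.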

How the data were processed

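Small RNAs of CMS and MF floral buds were sequenced, 1 library per line, with a degradome library of each. Per the study's methods the authors clipped adapters, filtered reads by length and compared them with mRNA, Rfam, repeats, miRBase and TAIR10. The authors deposited raw read counts per sequence, and normalized values (unit: score) that are counts multiplied by 1 factor per library and rounded. Hairpin indices and alignment scores were deposited as scores, and CleaveLand pairing p-values as given by the authors. Columns of the authors' own log2 fold changes were not used.

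The 15 members are all sequences with the listed family numbers. The members and lists were chosen with earlier results of these data known. Identical sequences were joined, which gave 246 distinct ones of 287 entries in the single profile tables. 2 further sequences given in the joint profile table alone were tried as an alternative. Calls used the authors' tests (Audic-Claverie, Fisher's exact and chi-squared, totals of 1000000). The study states a threshold of 0.01, and the Audic-Claverie limit was divided by 246 here. The 5 members called lower in CMS are also listed as lower by the study, from the same normalized values. Factors were read from the most abundant sequence. Ratios have exact conditional binomial intervals, shares exact Clopper-Pearson intervals, both at 95%. Within-library ratios were tested by Fisher's exact test, with Benjamini-Hochberg adjustment over all sequences in place of the members alone. Alternatives were 5 other scales, other limits, a minimum of 20 reads or 1.5-fold, other references, a window of 5000 bases and stricter cleavage sites. Named sequences were the members, their neighbours within 10000 bases, sequences sharing 12 or more bases, 5 listed families and, as part of a denominator, miR319a. The scripts (Python 3.11.15, scipy 1.17.1, Biopython 1.88) were tested on simulated libraries. With 1 library per group no spread between replicates was measured.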

Additional observations from a re-analysis of the deposited data

How the results depend on the processing

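No paired analysis was possible because each line had 1 library per assay and the labels give no replicate numbers. The number of members lower in CMS, 5, was 1 with mappable reads as the scale (4.07% of all sequences), 0 with raw reads (2.44%), 0 with Rfam reads (2.44%), 6 with listed miRNA reads (13.8%), 4 with the median ratio (8.54%), 3 with the two-sided Audic-Claverie tail (8.13%) and 1 with Fisher's exact test on raw reads (4.07%). The number higher in CMS, 0, was 1 with mappable reads (15.9%), 4 with raw reads (21.5%), 4 with Rfam reads (21.5%), 0 with listed miRNA reads (1.63%), 1 with the median ratio (6.1%), 0 with the tail (4.07%) and 2 with Fisher's exact test on raw reads (18.7%). Log2 ratios turned positive with mappable, raw and Rfam reads, at 0.24, 0.87 and 0.77 for peu-MIR2916-p3, 0.41, 1.04 and 0.94 for peu-MIR2916-p5, and 0.27, 0.90 and 0.80 for smo-MIR1103-p3. The summed members, at -0.14, moved to 0.75 with mappable reads, 1.37 with raw reads, 1.27 with Rfam reads and -0.66 with listed miRNA reads, shifts that follow from the totals of those scales. Without ppt-miR894_R+1 the sum was at -0.63 with the authors' factors. Without ppt-miR894_R+1, the members took 0.0215% of mappable and 0.652% of listed reads in CMS, and 0.0180% and 1.46% in MF, and their ratio to Rfam reads was 0.669% in CMS and 0.390% in MF. Against smo-MIR1103-p3, 2 members were lower and 1 higher in CMS. Without category 4, 0 member sites were left in MF, and 0 with a pairing p below 0.05. With 1 library per line, depth and line cannot be told apart.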

Other observations

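Sequences of further families listed beside the members gave few reads. ath-miR845a, which shares the 13-base run with rgl-miR5139_L-1 and gma-miR1511_R-2, had 48 reads in CMS and 135 reads in MF, a log2 ratio of -1.18 (95% interval -1.68 to -0.69) with the authors' factors, -0.29 per mappable read and 0.23 per Rfam read, where the sign turned. aly-miR845a, which differs after that run, had 47 reads in CMS and 59 reads in MF, a log2 ratio of -0.01 (-0.60 to 0.57), 0.87 per mappable read and 1.40 per Rfam read. The ath-miR845a sequence was called lower in CMS by the authors' factors, and aly-miR845a was not called; the difference between them was not tested. bdi-miR5059_L-3, a 17-nt read that also ends in CCA, had 13 reads in each library. The osa-miR5083_R-1 sequence had 6 reads in CMS and 15 in MF, osa-MIR5083-p3 had 1 read in CMS and 2 in MF, and vvi-miR3630*_L-2 had 5 reads in each.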
